A study of Mus musculus with 15 samples.

Results

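Mcm2, Mcm3, Mcm4, Mcm5, Mcm6 and Mcm7 encode the subunits of the MCM complex, the replicative DNA helicase. They were taken as the probe sets annotated with only 1 of these symbols, the brightest probe set per gene being kept. Each of the 6 genes had 1 such probe set, so that all 6 members were measured, of 19296 genes in all. The helicase was followed in 2 blood-forming populations of the bone marrow, isolated by double sorting in a flow cytometer from C57Bl/6 mice labelled male. Haematopoietic stem cells (HSC) were lineage-negative cells positive for c-Kit, Sca-1 and CD150 and without Flk2 and CD48, and granulocyte/macrophage progenitors (GMP) were lineage-negative cells positive for c-Kit, CD34 and Fc gamma receptor and without Sca-1. Old mice were aged 22 to 30 months and young mice 6 to 12 weeks. Old HSC were measured on 3 arrays, young HSC on 5, old GMP on 3 and young GMP on 4. The labels name no engineered allele and no treatment for any group. Whether the RNA on an array came from 1 mouse or from pooled mice is not labelled, and every p-value below rests on the spread between arrays alone, which may be technical. The title of the series names replication stress in ageing HSC as its subject.

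The MCM subunits form a ring of 6 different proteins. In G1 phase the origin recognition complex, Cdc6 and Cdt1 load the ring onto DNA in an inactive form, a step called licensing, which geminin blocks later in the cycle. In S phase the kinases Cdc7-Dbf4 and CDK, with Cdc45 and the GINS complex, turn the loaded ring into the active helicase that unwinds DNA ahead of the polymerases. Cells load more rings than they fire, and the surplus marks dormant origins that can be used when forks stall. MCM genes are classical targets of E2F factors, and their transcripts are low in resting cells. HSC are mostly resting cells of the marrow, whereas GMP divide actively.

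Since MCM genes are E2F targets, the promoter windows of RefSeq (build GRCm38.p6; 250 bases before to 50 after a start site) were searched on both strands for the letters TTTGGCGC, TTTCCCGC, TTTGCCGC and TTTCGCGC. A window was given for 5 of the 6 genes, all but Mcm4, and 4 of these 5 held a match: Mcm3, Mcm5, Mcm6 and Mcm7. Of all 32851 windows given, 2.26% held a match and 0.0974% held 2 or more. These shares are per window, whereas the members and the lists are counted per gene, by a match in any window. Mcm3, Mcm5 and Mcm7 held 2 matches each and Mcm6 held 3, while Mcm2 and a second window of Mcm7 held 0. In Mcm5 and in Mcm6 a pair of matches on opposite strands overlapped. The stretches around the matches are shown 5′ to 3′ on the strand of the gene, with the matched letters in capitals, because 4 members hold them:
Mcm5, chr8:75109329-75109428, plus strand: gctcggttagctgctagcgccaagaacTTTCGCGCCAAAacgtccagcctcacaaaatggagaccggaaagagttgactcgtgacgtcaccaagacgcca
Mcm6, chr1:128359716-128359845, minus strand: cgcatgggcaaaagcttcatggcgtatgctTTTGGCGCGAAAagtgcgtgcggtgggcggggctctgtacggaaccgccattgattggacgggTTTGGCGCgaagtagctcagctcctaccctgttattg
Mcm3, chr1:20820266-20820295, minus strand: tgGCGGGAAAacttgggaagtTTTGGCGCc
Mcm7, chr5:138172030-138172059, minus strand: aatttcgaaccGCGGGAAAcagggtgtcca
Mcm7, chr5:138171845-138171874, minus strand: gacgacgTTTCGCGCcaatttcggttggcc
The overlapping pair began 153 bases before the start site in Mcm5 and 110 bases before it in Mcm6, where a single match followed at 47 bases. Both matches of Mcm3 lay just after the start site. The letters were not particular to the members. In the lists described further on they were held by 2 of 3 other MCM family genes with a window and 6 of 11 E2F genes and regulators. They were also held by 4 of 9 origin recognition and loading genes, 6 of 19 fork elongation genes and 3 of 11 helicase activation genes. The shares were lower for S-phase E2F targets (1 of 9), proliferation genes (1 of 9) and MCM removal genes (1 of 7). A match describes the letters only and is not a measured binding site.

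Before the comparisons, the arrays were checked. All 8 measured HSC markers, such as Mecom and Slamf1, were higher in HSC than in GMP of young and of old mice, and of 8 GMP markers, such as Mpo and Elane, 8 were lower in young HSC and 7 in old HSC. The mean of the HSC markers lay between 9.57 and 10.13 log2 on the HSC arrays and between 7.15 and 7.48 on the GMP arrays. The spread of values within an array (interquartile range) was 1.96 to 2.33 log2 in old HSC and 2.21 to 2.69 in young HSC. Xist, which is transcribed from the inactive X of female cells, read 5.46 to 5.84 on the old arrays, 4.72 and 5.49 on replicate 1 of young HSC and young GMP, and 8.92 to 11.51 on the other young arrays, which goes against the label of male. A mean over 3 genes of the Y chromosome (Eif2s3y, Kdm5d and Uty) was lowest on replicate 4 of young HSC (4.94) and of young GMP (5.20). Beyond the replicate 1 arrays, age and this sex-linked signal cannot be told apart, and the age result in HSC is also given without both replicate 4 arrays and with the Y-linked mean in the fit.

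The first comparison asked how the helicase genes differ between old and young HSC. Every member was lower in old HSC: each of the 6 fell and passed the test, and for each of them every old array lay below every young array. The folds ran from 1.47 for Mcm3 to 1.86 for Mcm7. Of all genes, 9.22% were called lower, and 7.69% had every old array below every young array. Calls were made by limma over all 19296 genes with Benjamini-Hochberg adjustment, at an adjusted p under 0.05. These are relative RNA levels of sorted populations, in which fewer cells with MCM transcripts and less transcript per cell cannot be told apart.

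Mcm7, a subunit of the catalytic core of the ring with Mcm4 and Mcm6, read 8.01, 8.28 and 8.20 log2 on the old HSC arrays and 8.98, 9.17, 9.28, 8.91 and 8.97 on the young ones. The lowest young array was thus well above the highest old array. Its log2 difference was -0.90 ± 0.12 (SE; n = 3 old and 5 young arrays; limma adjusted p = 4.96e-04). Mcm6 read 10.02, 9.93 and 10.34 in old HSC and 10.75, 10.93, 10.92, 10.90 and 11.06 in young HSC. Old replicate 3 lay highest of its group, nearest to the young arrays. The difference of Mcm6 was -0.82 ± 0.11 (adjusted p = 6.49e-04). Mcm4 read 8.73, 8.74 and 8.91 against 9.19, 9.45, 9.46, 9.50 and 9.19, a difference of -0.56 ± 0.12 (adjusted p = 0.00944). For Mcm4 the young arrays fell into values of 9.19 and values of 9.45 to 9.50, all above old HSC.

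Mcm5, which with Mcm2 forms the gate through which DNA enters the ring, read 8.58, 8.78 and 8.71 in old HSC and 9.33, 9.71, 9.66, 9.52 and 9.48 in young HSC. The old arrays were close together, and the gap to the young ones was wider than the range of either group. The difference was -0.85 ± 0.13 (adjusted p = 0.00193). Mcm2 read 8.38, 8.63 and 8.93 against 9.08, 9.75, 9.41, 9.23 and 9.23, a difference of -0.69 ± 0.16 (adjusted p = 0.0146). It had the widest spread of the 6 genes in both HSC groups (SD 0.28 and 0.26), and old replicate 3 came close to young replicate 1. Mcm3, the partner of Mcm5 in the ring, read 9.0, 8.94 and 9.12 against 9.51, 9.75, 9.68, 9.54 and 9.41, a difference of -0.56 ± 0.11 (adjusted p = 0.00660).

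**Figure D1:**
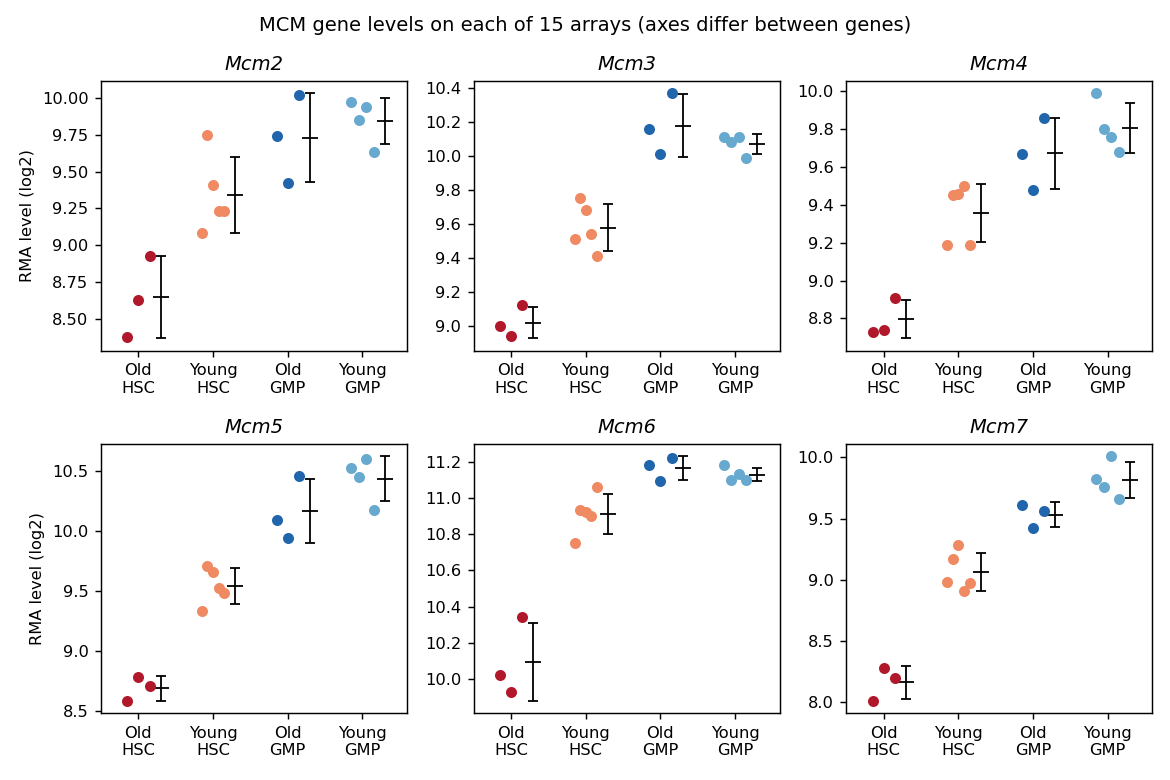
Level of each MCM gene (RMA value, log2; the axis differs between genes) on the 15 arrays in the 4 groups; points are arrays, and the bar beside them is the mean with the SD. In all 6 genes the 3 old HSC arrays lie below every other array.

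All 6 differences lay below the median of genes of like brightness. With all genes divided by mean level into 10 classes of equal size, Mcm2, Mcm4 and Mcm7 fell in class 9 and Mcm3, Mcm5 and Mcm6 in class 10, the brightest. In these classes the median difference was -0.30 and -0.29 log2, and 25.6% and 29.1% of genes were called lower, while the median over all genes was 0.03 and that of the 6 members -0.75. Ranked from the lowest difference of all genes, Mcm7 stood at place 185, Mcm5 at 234, Mcm6 at 302, Mcm2 at 631, Mcm4 at 1258 and Mcm3 at 1278. After quantile normalization of the arrays, which brought the medians of these classes to -0.04 and -0.02, Mcm5 (-0.61 ± 0.12, SE; adjusted p = 0.0105), Mcm6 (-0.52 ± 0.09; 0.00563) and Mcm7 (-0.73 ± 0.11; 0.00182) were still called, but Mcm2 (-0.47 ± 0.15; 0.0601), Mcm3 (-0.29 ± 0.10; 0.0766) and Mcm4 (-0.31 ± 0.12; 0.102) were not. With the interquartile range of the arrays in the fit, Mcm6 and Mcm7 alone were called, and without old HSC replicate 1 Mcm2 (adjusted p = 0.0938) and Mcm4 (0.0550) were not, nor without old HSC replicate 2 (0.0731 and 0.0569).

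Without replicate 4 of both young groups all 6 members were called, with differences from -0.94 (Mcm7) to -0.53 (Mcm4). With the Y-linked mean in the fit they were called as well, from -0.95 (Mcm7) to -0.55 (Mcm4). Xist still read 11.16, 10.02 and 10.26 on young HSC replicates 2, 3 and 5. Of these, replicates 3 and 5 had Y-linked means of 8.47 and 8.42. Neither fit therefore separates age from the sex-linked signal. Young HSC replicate 1, the only young HSC array with Xist as low as the old arrays, had a Y-linked mean of 8.80, against 8.45 to 8.80 in old HSC. Its mean over the 6 members was 9.47 log2, against 8.79 to 9.03 in old HSC and 9.56 to 9.79 on the other young HSC arrays.

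**Figure D2:**
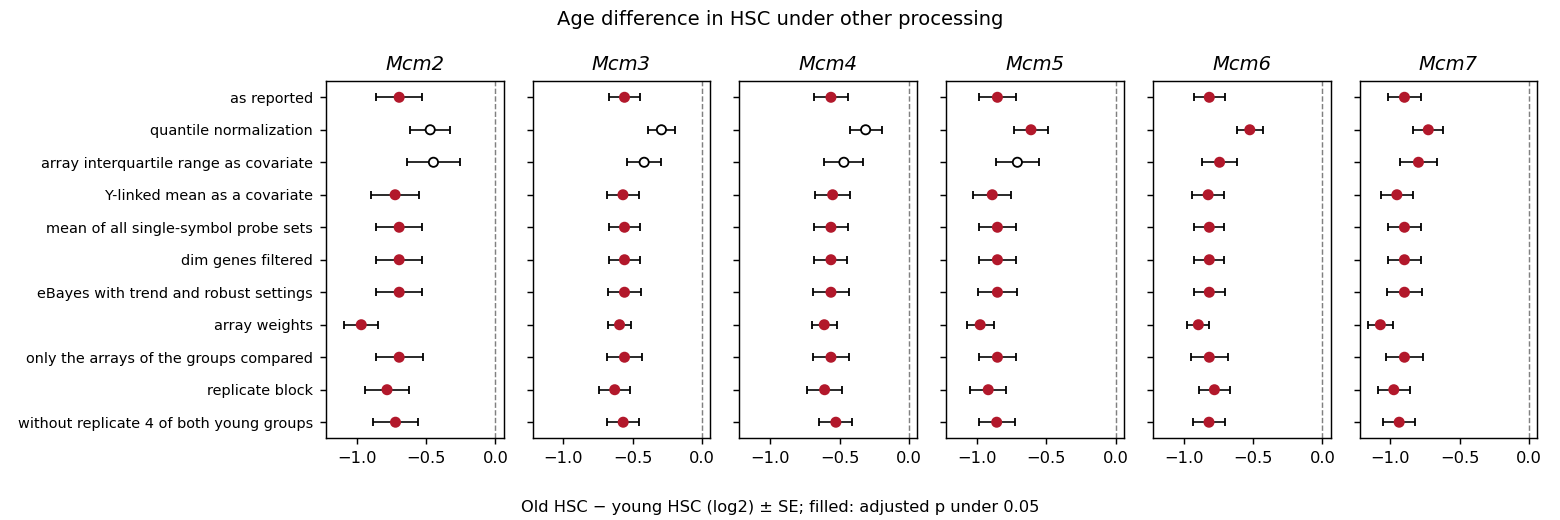
Age difference of each MCM gene in HSC (log2, old minus young, with SE) as reported and under 10 other settings; filled points passed an adjusted p under 0.05. All values lie below 0, and the open points are Mcm2, Mcm3 and Mcm4 after quantile normalization and Mcm2 to Mcm5 with the interquartile range of the arrays in the fit.

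The second comparison asked whether the helicase genes also differ with age in GMP. None of the 6 members passed the test, and neither did any other gene: limma called 0 of 19296 genes (0%), with 870 genes at an unadjusted p under 0.05. Mcm7 read 9.61, 9.42 and 9.56 in old GMP and 9.82, 9.76, 10.01 and 9.66 in young GMP. Its groups did not overlap, which held for 3.72% of genes in this direction, and the difference was -0.28 with a 95% interval from -0.54 to -0.02 (unadjusted p = 0.0344; adjusted p = 1 by limma). Mcm5 read 10.09, 9.94 and 10.46 against 10.52, 10.45, 10.60 and 10.17, a difference of -0.27 (95% interval -0.56 to 0.02). The old values of Mcm5 overlapped the young ones through old replicate 3. For Mcm2 and Mcm4 the differences were -0.11 (-0.47 to 0.24) and -0.13 (-0.40 to 0.13). For Mcm3 and Mcm6 they were above 0, at 0.11 (-0.14 to 0.35) and 0.04 (-0.20 to 0.28). For all 6 genes the lower end of the interval in GMP lay above the difference estimated in HSC.

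The difference between both age effects was then tested directly. It was below 0 for all 6 members, from -0.43 ± 0.17 log2 (SE) for Mcm4 to -0.85 ± 0.16 for Mcm6, with 95% intervals that lay below 0 for each gene. Bright genes were shifted the same way: the median was -0.26 in brightness class 9 and -0.27 in class 10. It was 0.02 over all genes and -0.60 for the 6 members. After quantile normalization the class medians were -0.052 and -0.045, that of the members was -0.42, and Mcm4 stood at -0.23 ± 0.17. Mcm6 alone was called after adjustment over all genes (limma adjusted p = 0.0461), where 0.0674% of genes were called lower. For Mcm2, Mcm3, Mcm4, Mcm5 and Mcm7 the adjusted p was 0.402, 0.146, 0.399, 0.315 and 0.223. The call of Mcm6 was near the threshold. It was lost with the replicate number as a block within age (-0.82 ± 0.14, adjusted p = 0.0508), with the interquartile range in the fit (-0.79 ± 0.15, 0.0702), after quantile normalization (-0.61 ± 0.14, 0.118) and when any 1 of 12 of the 15 arrays was left out (adjusted p up to 0.153); old HSC replicate 3 and young HSC replicates 1 and 4 were the exceptions.

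**Figure D3:**
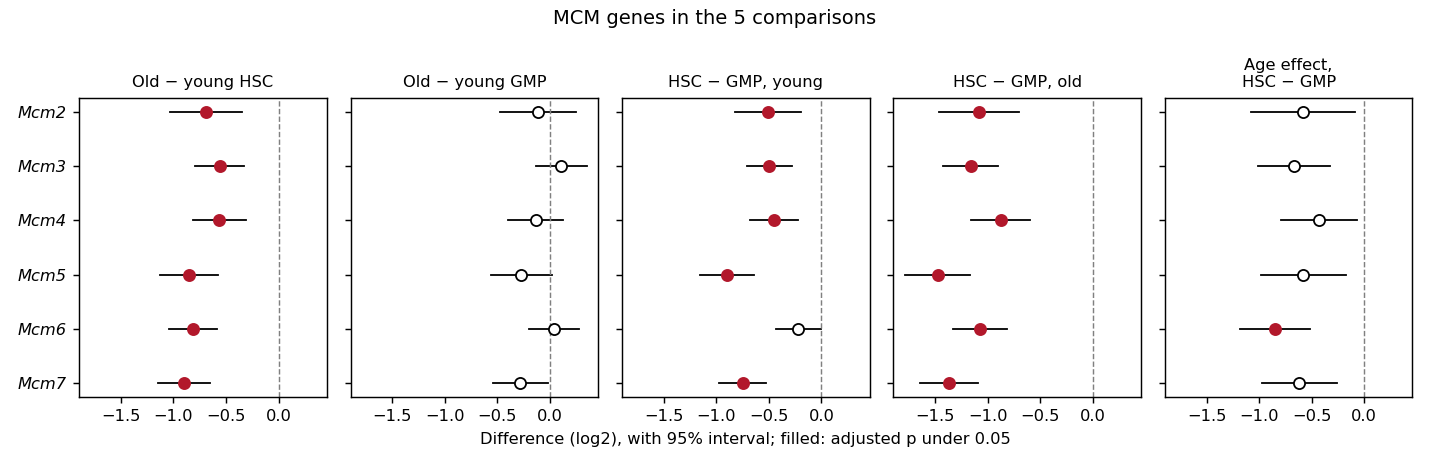
Difference of each MCM gene in the 5 comparisons (log2, limma) with its 95% interval; filled points passed an adjusted p under 0.05. The 6 genes lie between -0.90 and -0.56 for age in HSC and between -0.28 and 0.11 for age in GMP.

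The third comparison set HSC against GMP within each age. In young mice 5 of the 6 members were called lower in HSC, where 10.9% of all genes were. Mcm5 differed most, at -0.90 ± 0.12 log2 (limma adjusted p = 1.30e-05), or 1.86-fold. The young HSC values of Mcm5 given above ended at 9.71, and its lowest young GMP value was 10.17. Mcm7 followed at -0.75 ± 0.11 (2.43e-05), then Mcm2 at -0.50 ± 0.15 (0.0173), Mcm3 at -0.49 ± 0.10 (0.00106) and Mcm4 at -0.45 ± 0.11 (0.00434). Mcm6 was not called: its young GMP arrays read 11.18, 11.10, 11.13 and 11.10, and the difference was -0.22 with a 95% interval from -0.43 to -0.01 (adjusted p = 0.133). For 5 members, all but Mcm2, every young HSC array lay below every young GMP array, as for 9.51% of all genes. Mcm2 overlapped because young HSC replicate 2, at 9.75, lay above young GMP replicate 4, at 9.63. Mcm2 lost its call without young GMP replicate 1 (adjusted p = 0.0562) or 3 (0.0551) or young HSC replicate 1 (0.0523).

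In old mice all 6 members were called lower in HSC, where 13% of all genes were, and no group overlapped, as for 18.4% of genes in this direction. In the brightness classes of the members, 33.3% and 39.2% of genes were called lower. The folds ran from 1.84 for Mcm4 to 2.78 for Mcm5. Mcm5 differed by -1.48 ± 0.15 log2 (limma adjusted p = 4.70e-07), Mcm7 by -1.37 ± 0.13, Mcm3 by -1.16 ± 0.12, Mcm2 by -1.08 ± 0.18, Mcm6 by -1.07 ± 0.12 and Mcm4 by -0.88 ± 0.13. These calls held after quantile normalization, with the interquartile range in the fit and without any 1 array. Mcm3 read 10.16, 10.01 and 10.37 in old GMP, and Mcm6 read 11.18, 11.09 and 11.22. The old GMP values of both genes overlapped those of young GMP.

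Over the 4 groups the order of the means began with old HSC, followed by young HSC, for every member. Each old HSC array was below all 12 other arrays in all 6 genes, a pattern that 4.14% of all genes showed. Young HSC was separated from the next group without overlap for Mcm3, Mcm5, Mcm6 and Mcm7, and overlapped old GMP for Mcm2 and Mcm4. The lowest old GMP arrays of these genes read 9.42 and 9.48, and their highest young HSC arrays 9.75 and 9.50. Old and young GMP came in either order and overlapped for all but Mcm7. Mcm2 in GMP read 9.74, 9.42 and 10.02 in old mice and 9.97, 9.85, 9.94 and 9.63 in young mice. Mcm4 in GMP read 9.67, 9.48 and 9.86 and 9.99, 9.80, 9.76 and 9.68, again with shared ranges.

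The estimated differences varied in size among the members. The level of each gene minus the mean of the other 5 on the same array was used to describe this, without a test. How often other genes show such a lack of overlap was not computed, so the values are descriptions only. Mcm3 was higher relative to the others in old than in young mice in both populations, by 0.20 log2 in HSC (SD 0.10 in old and 0.08 in young) and 0.26 in GMP (SD 0.02 and 0.06), with no overlap. Mcm7 was lower relative to the others with age, with a difference of -0.20 in HSC, where the groups overlapped, and -0.20 in GMP, where they did not. Mcm5 set HSC apart from GMP: relative to the others it differed by -0.41 in young and -0.37 in old mice, with no overlap at either age. Mcm6 was the opposite case in young mice, 0.40 higher relative to the others in HSC than in GMP with no overlap, and in old mice the value was 0.12 with overlap. Mcm4 was 0.35 higher relative to the others in old HSC than in old GMP with no overlap (SD 0.05 and 0.01), and 0.20 higher in old than in young HSC with overlap. Mcm2 stayed within 0.11 in all 4 comparisons, with overlap in each.

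Among single arrays, the members moved together to different degrees. Over the 15 arrays the correlation between 2 members ran from 0.90 (Mcm5 with Mcm6) to 0.98 (Mcm5 with Mcm7), with differences between the groups included. After subtraction of the group means the correlation was 0.86 for Mcm2 with Mcm3 and 0.84 for Mcm2 with Mcm5, but 0.11 for Mcm6 with Mcm7. Against the mean of all 6, these deviations gave r of 0.97 for Mcm2, 0.91 for Mcm5, 0.90 for Mcm3, 0.84 for Mcm4, 0.71 for Mcm7 and 0.54 for Mcm6. Arrays share RNA amplification and normalization across genes, and these values are descriptions.

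The genes most like the members were those with the highest Pearson r with the mean of the 6 over the 15 arrays. They were Pole2, a subunit of DNA polymerase epsilon (0.98), Gmnn, the gene of geminin (0.98), the pyrimidine synthesis gene Umps (0.98), the integrin gene Itgam (0.98), Parvg (0.98), the dUTPase gene Dut (0.97), the flap endonuclease gene Fen1 (0.97) and the lysosomal mannosidase gene Man2b1 (0.97). Itgam encodes a chain of Mac1, a lineage marker that the sort excluded. Its level was low, at 6.26 to 6.41 log2 in old HSC, where the lower quartile of the arrays was 6.25 to 6.43. Since the mean of the members is itself lowest in old HSC, this choice favours genes that are low there, and their age difference is a description: it ran from 1.47-fold lower for Dut to 2.20-fold lower for Gmnn. After subtraction of the group means the nearest genes were Nup93, of the nuclear pore (0.94), Pole2 (0.93), Sys1 (0.90), Trim27 (0.89), Prkrip1 (0.88), Cnnm4 (0.88), Mrps2 (0.88) and Vps36 (0.87). Pole2 was in both lists.

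Genes that work before, with and after the ring were described by 8 lists. In old HSC, 9.22% of all genes were called lower and 2.25% higher, and the shares called lower were 25.6% and 29.1% in the brightness classes of the members. Of the MCM relatives Mcm8, Mcm9, Mcmbp and Mcmdc2, 1 fell in old HSC, Mcm8, whose product acts in recombination with Mcm9, by 1.38-fold (log2 -0.47 ± 0.14, SE; limma adjusted p = 0.0349). Mcmbp, whose product binds free MCM subunits, differed by -0.12 ± 0.11 (adjusted p = 0.438) and Mcm9 by -0.19 ± 0.13 (0.317). Of 10 genes of origin recognition and loading, 3 fell and 0 rose (median -0.35): Gmnn, the inhibitor of loading, by 2.20-fold, and the origin recognition genes Orc6 and Orc3 by 1.36-fold and 1.35-fold. This count is close to the share called lower in the brightness classes of the members. The genes of the lists were not placed in those classes.

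Of 17 genes that activate the helicase or travel with it, 7 fell and 0 rose in old HSC (median -0.31). Tipin, of the fork protection complex, fell 1.87-fold, the GINS genes Gins1 and Gins4 fell 1.81-fold and 1.58-fold, and Mtbp, a partner of the firing factor Treslin, fell 1.49-fold. Mcm10, which is no ring subunit but helps to start unwinding, differed by -0.20 ± 0.11 (adjusted p = 0.225). Of 22 genes of the elongating fork, 15 fell and 0 rose (median -0.64), among them Rpa3, whose product coats single-stranded DNA, 2.20-fold, Rfc2 and Rfc4, which load the sliding clamp, 2.07-fold and 1.82-fold, and Prim1, which makes primers, 1.87-fold. Of 8 genes that remove the ring at termination, 2 fell: Lrr1, the substrate receptor of the ubiquitin ligase that marks Mcm7, by 1.64-fold, and Ufd1, a cofactor of the Vcp unfoldase, by 1.57-fold. For this list too the count is close to the share called lower in the brightness classes of the members.

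Of 15 genes of E2F factors and their regulators, 2 fell in old HSC (median -0.16), E2f3, an activating E2F, by 1.61-fold, and the pocket protein gene Rbl1, by 1.39-fold. This count is near the share called lower among all genes. Of 10 other S-phase genes regulated by E2F, 7 fell and 0 rose (median -0.55), such as the cyclin gene Ccne2, 1.97-fold, the thymidylate synthase gene Tyms, 1.61-fold, Uhrf1, 1.59-fold, and the ribonucleotide reductase gene Rrm2, 1.49-fold. Of 11 proliferation genes, mainly of mitosis, 3 fell (median -0.43): the kinase gene Cdk1, 1.70-fold, the cyclin gene Ccnb2, 1.63-fold, and Foxm1, 1.46-fold. Here the count is close to the share called lower in the brightness classes of the members. The mean of the proliferation genes lay between 8.24 and 8.92 log2 in old HSC and between 8.78 and 9.11 in young HSC, so that these groups overlapped, through old replicate 2. The mean of the 6 helicase genes lay between 8.79 and 9.03 in old HSC and between 9.47 and 9.79 in young HSC. Whether a changed share of cycling cells has a part in the fall of the members was not tested.

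In GMP 0 genes of the 8 lists were called with age, and the list medians lay between -0.10 and 0.11. In young mice, where 10.9% of all genes were called lower in HSC, the lists differed between the populations as follows. All 11 proliferation genes were lower in HSC (median -1.03), as were 15 of 17 helicase activation genes (median -0.66), such as Ticrr, the gene of Treslin, 2.40-fold, Gins1, 2.35-fold, and Cdc45, 2.29-fold. The median of the 6 helicase genes was -0.50, beside -0.05 over all genes. Of the E2F genes and regulators 4 were lower and 4 higher in young HSC, where 13.6% of all genes were called higher; E2f8 was 3.11-fold lower, and Mycn, E2f5 and the quiescence-associated pocket protein gene Rbl2 were 2.58-fold, 1.93-fold and 1.88-fold higher. In old mice 3 of them were called higher in HSC, against 9.25% of genes, and 5 lower, against 13% of genes. For the S-phase genes, Rrm1, the large subunit of ribonucleotide reductase, was called in the test of the difference between both age effects (-0.81 ± 0.15; adjusted p = 0.0464), and 0 genes of the other 7 lists were.

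**Figure D4:**
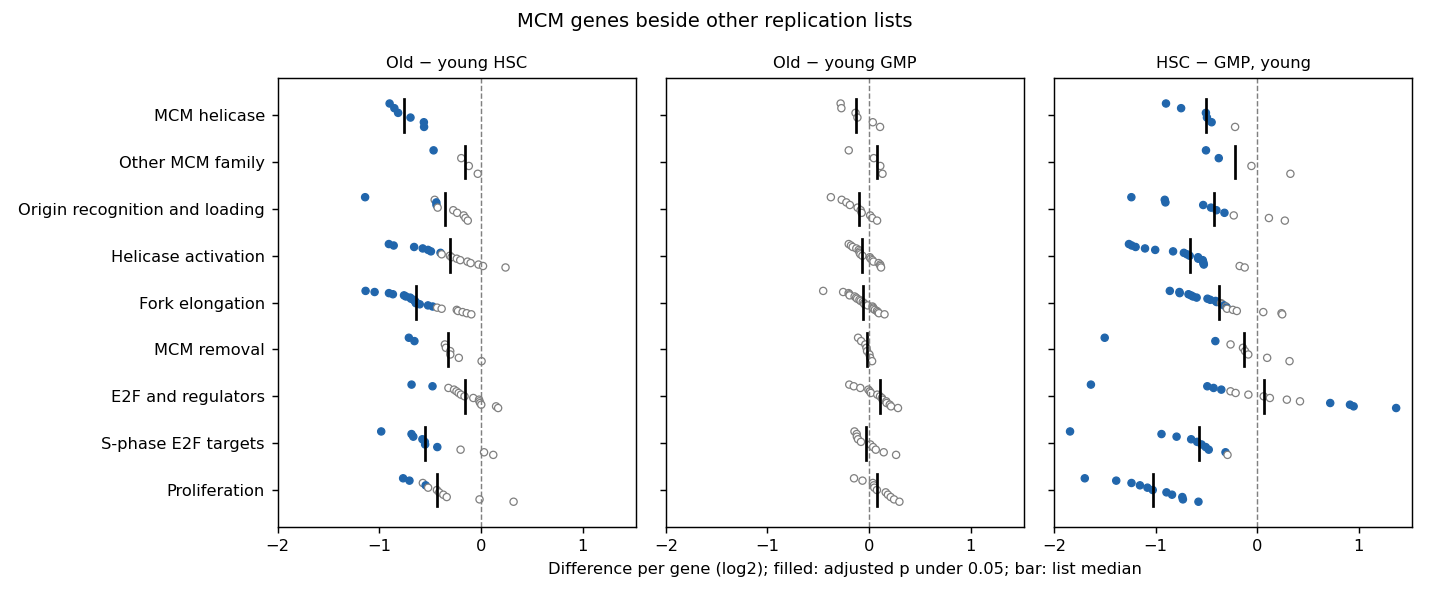
Difference of each gene (log2) in the MCM helicase and 8 other lists, for age in HSC, age in GMP, and HSC against GMP in young mice; filled points passed an adjusted p under 0.05 and bars are list medians. For age in HSC the helicase median is -0.75, that of fork elongation -0.64 and that of the other MCM family genes -0.16.

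Markers of other cell types were also followed in HSC with age. The mean of 6 T and NK cell markers lay between 6.50 and 6.61 log2 in old HSC and between 6.12 and 6.40 in young HSC, without overlap. How often other lists show such a lack of overlap was not computed. In this list 1 marker was called higher (Klrb1c, 2.22-fold) and 1 lower (Nkg7, 1.52-fold). For 6 mast cell and basophil markers the ranges were 5.96 to 6.31 and 5.77 to 6.10, for 6 endothelial markers 7.22 to 7.34 and 7.23 to 7.44, and for 8 GMP markers 6.83 to 6.97 and 6.81 to 7.0. The ranges of erythroid, megakaryocyte, B cell, macrophage and mature neutrophil markers overlapped between old and young HSC as well. Called with age in HSC were 1 erythroid marker (Slc4a1, 1.31-fold) and 1 megakaryocyte marker (Itgb3, 2.17-fold), higher, and 1 endothelial marker (Emcn, 2.27-fold), lower. Of all genes 2.25% were called higher and 9.22% lower. Between the populations several lists moved with the members. In young HSC 10.9% of all genes were called lower than in young GMP. Of 6 mast cell and basophil markers 6 were, with list means of 5.77 to 6.10 against 8.08 to 8.15. Of 6 macrophage markers 3 were called lower (6.39 to 7.05 against 7.51 to 7.62), of 6 mature neutrophil markers 3 (6.24 to 6.74 against 7.29 to 8.27), and of 6 T and NK cell markers 1, with 1 higher (6.12 to 6.40 against 6.70 to 6.90). The part of any of these cells in the differences of the helicase genes was not tested.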

How the data were processed

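RNA of sorted HSC and GMP was amplified and biotinylated with NuGEN kits, per the labels' protocols, and measured on arrays. The authors deposited log2 expression values for 23309 probe sets on 15 arrays; RMA, affy and limma are credited to the submitters' processing notes, which give no version, and the log2 scale was read from the values. Background and filter settings and the genome build are not given in the sources used here. Of the probe sets, 20728 had 1 gene symbol, 1174 had several and 1407 had none; the brightest per gene left 19296 genes. All 15 columns were matched to samples. The 4 group means were fitted together in limma 3.58.1 (R 4.3.3) with empirical Bayes moderation, Benjamini-Hochberg adjustment over all genes and a threshold of 0.05, checked on simulated data. The helicase genes and the lists were chosen with earlier results of these data known. Named list genes were up to 4 called genes by size per comparison; genes most like the members were the 8 with the highest r. Mcm9, Mcmbp and Mcm10 are named beside this rule, as relatives of the members. List genes without a single-symbol probe set were not analysed here. Arrays of the same replicate number gave a correlation of deviations of 0.161 to 0.525 in the 4 pairs of young HSC with young GMP. In the 3 old pairs it was 0.05, 0.23 and 0.422. Some pairs of unlike number came as high, such as 0.247 for young HSC replicate 2 with young GMP replicate 1. The sex-linked values of the young arrays also went with the number. The Y-linked means of young HSC and young GMP were 8.80 and 8.61 for replicate 1, and 7.12 and 7.20 for replicate 2. They were 8.47 and 8.28 for replicate 3, and 4.94 and 5.20 for replicate 4. Whether replicate numbers mark paired samples was not settled, and the reported fits treat all arrays as independent. The number of arrays limits the precision. Alternatives were quantile normalization, covariates for the interquartile range and for 3 Y-linked genes, mean probe sets, a filter on dim genes (above the lower quartile on at least 3 arrays), trend and robust moderation, array weights, separate fits, replicate blocks and arrays left out.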

Additional observations from a re-analysis of the deposited data

Results flagged for a closer look

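The age difference of Mcm6 in HSC (-0.82 log2) and in GMP (0.04) differed by the test of the difference itself (-0.85 ± 0.16 log2, SE; limma adjusted p = 0.0461), every old HSC array lying below every young one while the GMP groups overlapped. The call was lost in 15 of 25 other settings. Over the 25 settings the limma adjusted p ran from 1.48e-04, with array weights, to 0.153. In the 12 groups of 4 or 5 arrays that the members form, 0 arrays stood out from their group by Dixon's test.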

How the results depend on the processing

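Of 762 values of single members under other settings, 726 kept direction and side of the threshold, 29 lost the call, 6 gained one and 1, not called in either fit, changed sign (Mcm2 for age in GMP, which ran from -0.26 without old GMP replicate 3 to 0.039 without old GMP replicate 2). For age in HSC 2213 genes and 6 members were called. Quantile normalization gave 1310 genes (532 higher and 778 lower, against 434 and 1779) and 3 members, the interquartile range as a covariate 105 and 2, the Y-linked mean 6588, array weights 8966, the compared groups alone 871, and leaving out replicate 4 of both young groups 6183. For age in GMP, with 0 called, the Y-linked mean gave 224 genes, array weights 832 and 1 member (Mcm5), and leaving out both replicate 4 arrays 188. Array weights gave 7494 genes for old HSC against old GMP (4292 as reported). For the difference between both age effects (18 genes and 1 member), quantile normalization gave 12 genes and 0 members, the interquartile range 5 and 0, the Y-linked mean 32, array weights 2407 and 6, and leaving out both replicate 4 arrays 145. The array weights were uneven: old HSC replicate 1 had a weight of 7.47, against 0.409 and 0.487 for replicates 2 and 3. In old HSC that fit thus rested mainly on 1 array, and all 6 gained calls came from it. The cause of the shifts between settings was not tested.

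With each array left out in turn, age in HSC gave 345 (without old HSC replicate 2) to 5312 genes (without young HSC replicate 4) and 4 to 6 members, age in GMP 0 to 12 genes, and the difference 1 (without old GMP replicate 2) to 192 genes (without young HSC replicate 4) and 0 to 1 members.

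The block on the replicate number changed no member call between young HSC and young GMP. Old and young arrays share only a number. There the replicate block raised the genes called to 6280 in HSC, to 232 in GMP and to 41 for the difference, and the block within age gave 0 members for the difference. Groups of 3 to 5 arrays limit what could be called.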

Other observations

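The microRNA genes Mir106b, Mir93 and Mir25 lie inside the Mcm7 gene on its strand (GRCm38.p6, chr5:138164583-138172111), and their probe sets were looked up after the values of Mcm7 were seen. Mature strands from RefSeq are shown with the seed in capitals, since miR-106b and miR-93 share a seed that miR-25 does not have:
mmu-miR-106b-5p, chr5:138165787-138165807: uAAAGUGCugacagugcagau
mmu-miR-93-5p, chr5:138165574-138165596: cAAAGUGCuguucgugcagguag
mmu-miR-25-3p, chr5:138165332-138165353: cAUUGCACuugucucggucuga
The probe sets carry the gene names of the precursors and do not measure mature strands. Mir93 read 7.12, 7.50 and 7.04 log2 in old HSC and 7.0, 6.81, 6.62, 7.03 and 6.65 in young HSC. The old arrays lay above the young ones by a margin of 0.02. None of the 3 passed the test for age in HSC: the differences were 0.40 ± 0.14 (SE; limma adjusted p = 0.0607) for Mir93, 0.33 ± 0.15 (0.142) for Mir106b and 0.15 ± 0.13 (0.457) for Mir25, beside -0.90 ± 0.12 for Mcm7. In young mice Mir25 was called lower in HSC than in GMP (-0.64 ± 0.12, limma adjusted p = 5.06e-04), beside -0.75 for Mcm7. Mir93 (0.02) and Mir106b (0.02) were not called there. In old mice Mir93 alone was called, higher in HSC (0.44 ± 0.15, limma adjusted p = 0.0449), beside -1.37 for Mcm7. With age in GMP Mir25 differed by -0.38 and was not called, beside -0.28 for Mcm7.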
